A study of Rattus norvegicus with 25 samples.

Results

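The 10 genes described here are innate immune sensors and their signalling adaptors, measured by 3′ RNA sequencing in rat tooth and periodontal ligament after a molar had been extracted, kept dry and replanted. They were chosen by symbol: the membrane receptors Tlr2 and Tlr4, the endosomal receptors Tlr7 and Tlr8, the co-receptor Cd14, the adaptor Myd88, the receptors Trem1, Clec7a and Clec4e, and the adaptor Tyrobp. All 10 were found, each with 1 entry, among 16881 gene symbols, and 9 had enough counts to be tested. Tlr7 was too low, with 72 counts over 24 replanted libraries and 0 counts in 9 of them.

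The Sprague–Dawley rats fell into 4 replanted groups of 6 libraries and an unreplanted control. In the delayed group (DR) the maxillary first molar stayed dry for 60 min, and in the immediate group (IR) for 5 min, and tissue was collected 3 or 7 days after replantation, giving DR day 7, IR day 7, DR day 3 and IR day 3. The control, labelled NT, was 1 library. Postnatal day 21 is the age given to every library, with no word on the step at which it was counted, and the age of NT relative to the others is therefore open to doubt. Whether each library stands for its own animal is not stated, and p-values here measure the spread between libraries, which may be technical.

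Toll-like receptors are pattern receptors of myeloid cells: they bind microbial lipids, proteins or nucleic acids, and most of them pass the signal through Myd88 to NF-kB and inflammatory genes. Trem1 and many related receptors have no signalling tail and work through Tyrobp (DAP12), which carries an immunoreceptor tyrosine-based activation motif (ITAM) and recruits the kinase Syk, while Clec7a and Clec4e are C-type lectins that also signal through Syk. In the periodontal ligament such sensors sit on neutrophils, monocytes, macrophages and osteoclasts, and Tyrobp also serves osteoclast formation.

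A common upstream sequence was looked for because most of the 10 genes moved together across the libraries. Promoter windows of 250 bases before and 50 after the start, from RefSeq on build GRCr8, were found for 9 members; Tyrobp had no entry. The 250 bases before the start are printed, 5′ to 3′ on the gene's own strand, for the 3 members called between the days and for Tlr2, the member with the most matches, 7 that overlap in 2 stretches. They lie at chr18:28611159-28611408 (Cd14), chr8:127956231-127956480 (Myd88), chr4:164599828-164600077 (Clec7a) and chr2:171504558-171504807 (Tlr2), all on the minus strand. Capitals mark matches on either strand to GAGGAA, a core bound by myeloid ETS factors, or to a loose NF-kB pattern, GGG and CC with 5 bases of any kind between them.
Cd14: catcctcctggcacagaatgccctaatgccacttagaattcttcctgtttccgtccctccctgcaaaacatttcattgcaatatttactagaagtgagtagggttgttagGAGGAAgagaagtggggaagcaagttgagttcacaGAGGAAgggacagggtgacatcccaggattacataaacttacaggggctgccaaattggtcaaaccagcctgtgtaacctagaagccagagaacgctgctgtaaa
Myd88: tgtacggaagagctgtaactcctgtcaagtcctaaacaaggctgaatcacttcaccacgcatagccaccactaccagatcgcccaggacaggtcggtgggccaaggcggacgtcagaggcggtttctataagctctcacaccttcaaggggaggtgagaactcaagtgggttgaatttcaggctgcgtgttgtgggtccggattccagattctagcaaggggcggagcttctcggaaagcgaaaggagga
Clec7a: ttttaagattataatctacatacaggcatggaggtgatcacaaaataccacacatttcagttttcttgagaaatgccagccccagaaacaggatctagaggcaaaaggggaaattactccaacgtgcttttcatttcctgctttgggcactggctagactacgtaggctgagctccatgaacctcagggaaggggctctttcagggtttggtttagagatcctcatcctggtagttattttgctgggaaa
Tlr2: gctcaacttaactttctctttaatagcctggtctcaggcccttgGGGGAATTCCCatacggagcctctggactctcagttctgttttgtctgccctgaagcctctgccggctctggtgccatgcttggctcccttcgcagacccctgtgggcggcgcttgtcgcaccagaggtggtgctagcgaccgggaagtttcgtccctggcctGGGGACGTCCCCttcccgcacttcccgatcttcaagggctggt
GAGGAA stood in the 300-base window of 6 of 9 members (Tlr4, Tlr7, Tlr8, Cd14, Trem1 and Clec4e), against 27.6% of 33469 rat promoters of the same length. The NF-kB pattern stood in 2 of 9, Tlr2 and Cd14, against 47.3% of those promoters, and the Cd14 match lay after the start, outside the printed stretch. The windows of Myd88 and Clec7a, both called between the days, held neither pattern. The matches of the patterns shared no bases, and a match describes letters in a window, not a bound site.

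Levels are given as CPM, counts brought to a common library size, here by the trimmed mean of M-values (TMM) over 25 libraries. Counting a 3′ tag does not grow with transcript length, and levels of different genes are set side by side here. The annotation and the counting tool are not given, so how fully the tags of each gene were counted is unknown. By the median over the 24 replanted libraries, the order was Tyrobp (958 CPM), Clec7a (129), Myd88 (42.6), Tlr2 (36.3), Trem1 (32.8), Cd14 (27.1), Clec4e (2.12), Tlr4 (2.02), Tlr8 (0.623) and Tlr7 (0.159). The ranges of neighbours in this order overlapped: Clec7a ran between 4.53 and 481 CPM and Tyrobp between 37.6 and 1739 CPM.

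Total counts were 5005071 to 8740261 in the replanted libraries and 8494013 in NT, and entries of ribosomal RNA took 9.81% to 34.1% and 2.93% of them. Of the 8 ligament and fibroblast markers, Postn and Col1a1 averaged 331 to 732 CPM and 13288 to 47707 CPM in the replanted groups, against 2819 and 126426 CPM in NT, while Dcn averaged 905 to 1583 CPM against 1247 CPM and Scx 5.93 to 8.61 CPM against 8.44 CPM. The odontoblast gene Dspp averaged 0.475 to 1.1 CPM in the day 7 groups and 0.511 to 9.67 CPM in the day 3 groups. The single NT library had 1074 CPM, so this defining odontoblast marker was nearly absent after replantation. Other markers of the odontoblast and pulp list differed less. Dmp1 averaged 254 to 486 CPM against 652 CPM in NT, Phex 42.1 to 147 CPM against 552 CPM, and Sall1 0.308 to 1.59 CPM against 1.54 CPM. Of the day 3 libraries, 4 stood apart by markers of lipid-secreting glands, which made up 1% or more of their counts: DR day 3 replicates 1, 2 and 3 (1.62%, 1.6% and 2.24%) and IR day 3 replicate 6 (2.65%). IR day 3 replicates 3 and 4 carried 24.8% and 29.3% of nasal gland markers. Comparisons that rest on the day 3 groups are therefore also given without the 4 libraries and without all 6.

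Tyrobp, the adaptor of Trem1, Trem2 and other tailless receptors, was the most abundant member in every group. Its lowest, median and highest levels were 597, 1050.2 and 1184 CPM in DR day 7 and 525, 1146 and 1739 CPM in IR day 7. In DR day 3 they were 72.4, 252 and 1231 CPM, in IR day 3 37.6, 212 and 1501 CPM, and NT had 368 CPM. The day 7 libraries were all above NT, while the day 3 groups each held libraries as high as day 7 and libraries under NT. Fewer cells of a type and less RNA per cell cannot be told apart in such bulk tissue, here and for each gene below.

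Tlr2, the receptor for bacterial lipoproteins, behaved alike. Lowest, median and highest levels were 18.4, 46.5 and 78.5 CPM in DR day 7 and 9.3, 52.4 and 104 CPM in IR day 7. At day 3 they were 0.541, 8.48 and 49.6 CPM in DR and 0, 5.25 and 51.1 CPM in IR, against 5.58 CPM in NT. The highest library of each day 3 group exceeded the DR day 7 median, while others were below NT.

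Tlr4, which recognises lipopolysaccharide, was about as scarce as Clec4e. At day 7 it had 0.196, 2.76 and 3.85 CPM (lowest, median, highest) in DR and 0, 3.84 and 5.57 CPM in IR. At day 3 it had 0, 1.02 and 2.73 CPM in DR and 1.26, 1.67 and 4.26 CPM in IR, against 1.43 CPM in NT. All 4 groups overlapped one another and straddled NT.

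Cd14, which hands lipopolysaccharide to Tlr4, was more abundant than its partner. Its lowest, median and highest levels were 20.6, 44.1 and 65.1 CPM in DR day 7 and 11.1, 48.5 and 62.5 CPM in IR day 7, against 0.926, 10.7 and 37.8 CPM in DR day 3 and 0.787, 8.24 and 44 CPM in IR day 3. NT had 6.3 CPM, below every day 7 library.

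The endosomal receptors for single-stranded RNA were close to the limit of counting. Tlr8 reached at most 3.94 CPM (DR) and 5.02 CPM (IR) at day 7, with medians of 1.46 and 0.621 CPM. At day 3 it reached 3.08 CPM (DR) and 1.22 CPM (IR), with medians of 0.532 and 0.434 CPM. Tlr7 never passed 2.2 CPM, or 14 counts, with medians of 0.196 (DR) and 0.0774 CPM (IR) at day 7 and 0.296 (DR) and 0.123 CPM (IR) at day 3. The groups of both genes overlapped throughout. Neither gene had a count in NT, where 3 counts, the limit that a count of 0 allows, would be 0.356 CPM; this limit covers counting error only.

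Myd88, the adaptor shared by all 4 Toll-like receptors here, had the narrowest range of the 10 on the log2 CPM scale over the 24 replanted libraries. Its lowest, median and highest levels were 23.3, 60 and 68.2 CPM in DR day 7 and 24.3, 60.4 and 89.6 CPM in IR day 7. They were 23.8, 35.4 and 49 CPM in DR day 3 and 17.7, 29.5 and 45.3 CPM in IR day 3, against 26.4 CPM in NT. Most day 7 libraries stood above all day 3 libraries, but DR day 7 replicates 4 and 6 and IR day 7 replicate 6 lay at 23.3, 29.5 and 24.3 CPM, within the day 3 range. These 3 also had the highest nasal gland shares of day 7, at 3.87%, 5.94% and 8.6%, with at most 1.62% in the other day 7 libraries. At day 3 the lowest Myd88 levels, 22.6, 17.7 and 20.9 CPM, were those of IR replicates 3, 4 and 5, with nasal gland shares of 24.8%, 29.3% and 4.92%, but DR replicate 4 had 46.3 CPM at 5.45%. NT itself, at 26.4 CPM of Myd88, had a nasal gland share of 2.95%. The part of nasal gland tissue in the Myd88 levels was not tested.

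Trem1, an amplifier of neutrophil and monocyte responses, had lowest, median and highest levels of 14.7, 44.2 and 59.4 CPM in DR day 7 and 4.97, 46.4 and 90 CPM in IR day 7. At day 3 the levels were 0, 4.96 and 88.7 CPM in DR and 0, 4.02 and 54.1 CPM in IR, against 6.54 CPM in NT. Both the near-absent and some of the highest Trem1 libraries were day 3 libraries.

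Clec7a (Dectin-1), the receptor for fungal beta-glucan, was the second most abundant member, with 80.7, 238 and 364 CPM (lowest, median, highest) in DR day 7 and 33.9, 207 and 481 CPM in IR day 7. The day 3 levels were 7.14, 40.7 and 217 CPM in DR and 4.53, 51.5 and 135 CPM in IR, against 27.2 CPM in NT. Clec4e (Mincle), a receptor for mycobacterial glycolipid and for a nuclear protein shed by dying cells, was far lower. It had 0.852, 4.77 and 7.91 CPM in DR and 0, 2.96 and 10.2 CPM in IR at day 7. At day 3 it had 0, 0.155 and 9.23 CPM in DR and 0, 0.146 and 3.19 CPM in IR, with no count in NT. Each lectin overlapped between the days.

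**Figure D1:**
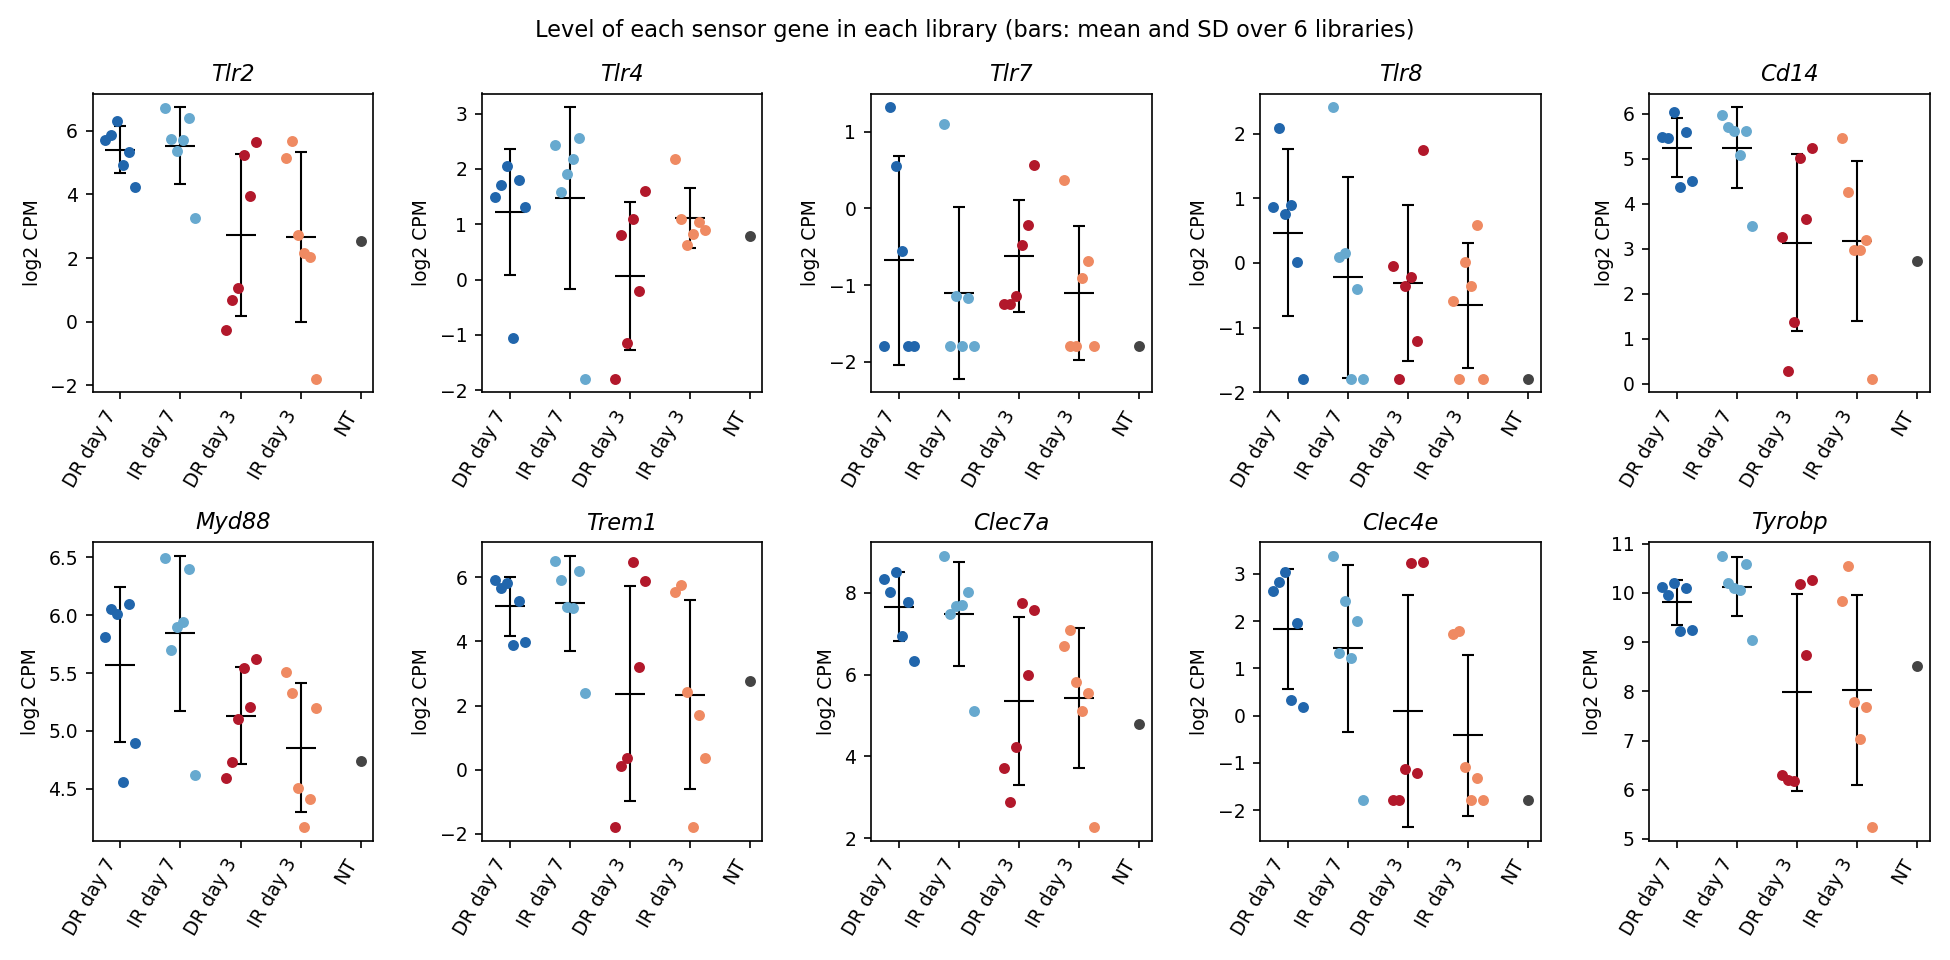
Level of each of the 10 genes (log2 CPM, vertical axis, prior count of 2) by group, in the order DR and IR of day 7, DR and IR of day 3, and NT. Each point is 1 library, and bars are the mean and SD over 6 libraries. Day 3 libraries spread widely for Tlr2, Cd14, Trem1, Clec7a and Tyrobp, and for each of the 10 genes the day 7 and day 3 ranges overlap.

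Part of the spread at day 3 followed the libraries that stood apart by gland markers. In the 4 libraries of high lipid gland share, Tyrobp was 37.6 to 79.1 CPM, against 131 to 1501 CPM in the other 8 day 3 libraries. Tlr2 was 0 to 1.81 CPM in the 4 libraries, against 3.76 to 51.1 CPM in the 8. Clec7a was 4.53 to 18.5 CPM, against 34.2 to 217 CPM. None of these 3 ranges overlapped, in sets chosen after seeing the data, and the share of all genes without overlap is not given. Trem1, at 0 to 0.989 CPM against 0 to 88.7 CPM, and Cd14, at 0.787 to 9.2 CPM against 7.58 to 44 CPM, did overlap. Myd88 did not share this pattern: it was 23.8 to 36.4 CPM in the 4 libraries, inside the 17.7 to 49 CPM of the other 8. A wide spread remained in the 6 day 3 libraries outside both gland sets. There Tyrobp was 204 to 1501 CPM, Tlr2 3.76 to 51.1 CPM and Trem1 2.99 to 88.7 CPM.

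Several other marker sums moved with the sensors in the same 4 libraries. In the 12 day 7 libraries the sums of ligament and fibroblast, neutrophil, and monocyte and macrophage markers were 33355 to 99894, 2001 to 8999 and 1818 to 5666 CPM. At day 3, the summed level of the ligament and fibroblast markers was 1138 to 8582 CPM in the 4 libraries, against 11349.8 to 41948 CPM in the other 8. The neutrophil sum was 99.2 to 384 CPM against 382 to 10346 CPM, and the monocyte and macrophage sum 178 to 505 CPM against 705 to 4325 CPM. Skeletal muscle and epithelium markers went the other way. Their median sums were 1958 and 862 CPM in the 4 libraries, against 368 and 603 CPM in the 8, with overlapping ranges. The part of the tissue content in the levels of the sensors was not tested.

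**Figure D2:**
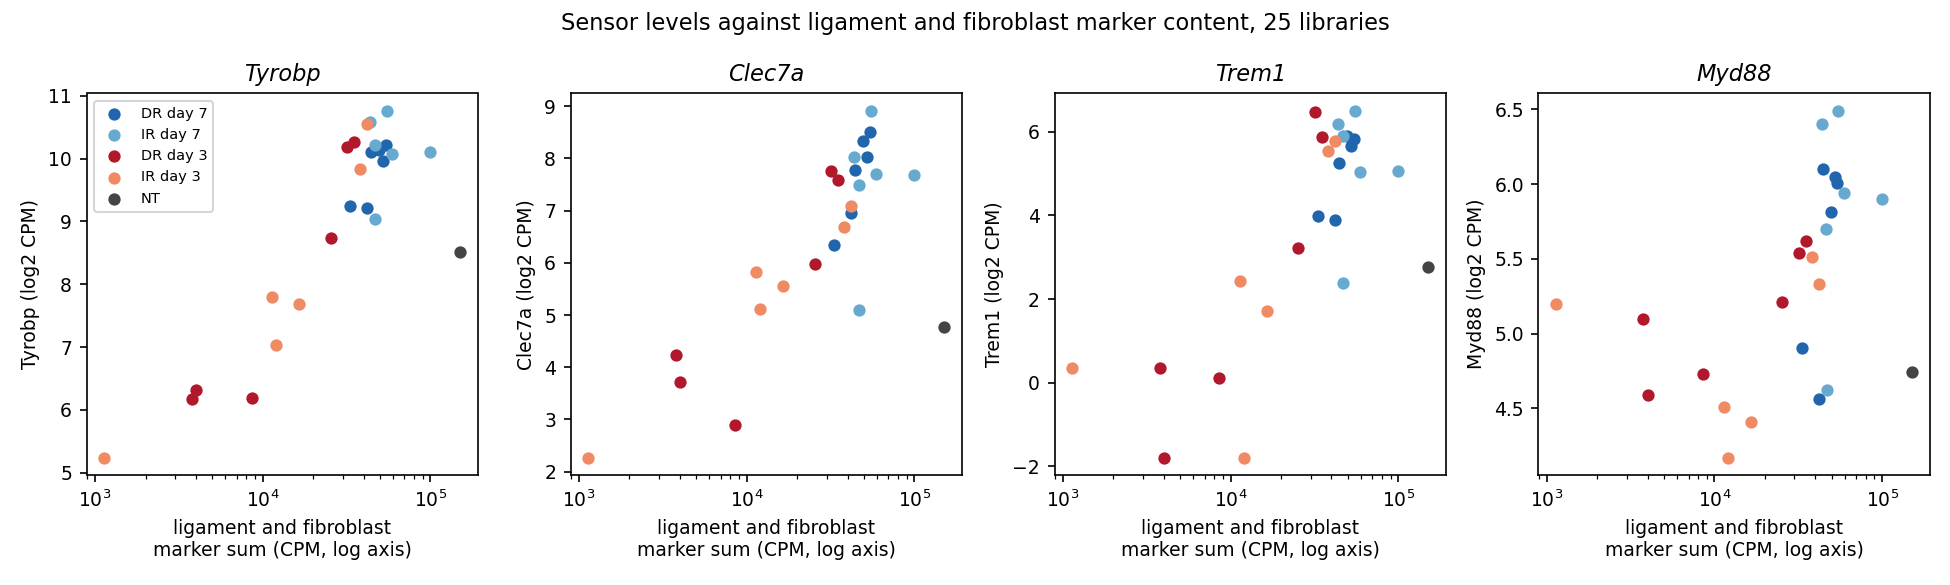
Level of Tyrobp, Clec7a, Trem1 and Myd88 (log2 CPM, vertical axes) against the summed level of ligament and fibroblast markers (CPM, log axis) in 25 libraries, coloured by group. The 4 libraries with sums of 1138 to 8582 CPM hold the lowest Tyrobp and Clec7a levels, while their Myd88 levels lie among those of the other libraries; NT, at 150640 CPM, lies apart.

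Whether the sensors changed between 3 and 7 days after replantation was asked over both drying times together, with edgeR's quasi-likelihood test over 11492 genes. A gene counts as called where its p, adjusted by Benjamini and Hochberg over all genes tested, was under 0.05. Of the 9 members tested, 3 were called, all higher at day 7, beside 18.8% of all genes called (6.94% higher and 11.8% lower). Clec7a had a log2 fold change of 1.61 with an SE of 0.541 (adjusted p = 0.0411 by edgeR). Cd14 had 1.45 with an SE of 0.506 (adjusted p = 0.0488 by edgeR). Myd88 had 0.74 with an SE of 0.219 (adjusted p = 0.0238 by edgeR). Their levels overlapped between the days, as did those of the other 7 members; libraries of the 2 days did not overlap for 0.0609% of genes.

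The other 6 did not pass, each with a higher mean at day 7. Tlr2 had a log2 fold change of 1.57 (SE 0.673, adjusted p = 0.099 by edgeR) and Tyrobp of 1.05 (SE 0.528, adjusted p = 0.158). Clec4e (1.11), Tlr8 (1.05), Trem1 (0.97) and Tlr4 (0.95) had adjusted p-values of 0.367, 0.345, 0.398 and 0.222 by edgeR. The median log2 fold change of the 9 was 1.05, against -0.059 over all genes tested, of which 45.3% were positive. These folds compare mean counts; on the log scale, where low libraries weigh more, the mean Tlr2 level was 5.47 log2 CPM at day 7 and 2.69 at day 3, a larger gap. limma-voom called 6 of the 9 members, beside 12.7% of all genes called higher.

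Without the 4 libraries of high lipid gland share, 0 members were called by edgeR, beside 1.16% of genes called higher, and 3 had an unadjusted p under 0.05. Clec7a then had a log2 fold change of 1.07 (adjusted p = 0.189 by edgeR), Cd14 of 0.94 (0.206) and Myd88 of 0.64 (0.183). Without all 6 libraries of high gland share, 0 members were called by edgeR, beside 0.33% of genes called higher, and 0 had an unadjusted p under 0.05. Clec7a had 0.90, Cd14 0.72, Myd88 0.51, Tyrobp 0.23 and Trem1 0.05, and the median of the 9 was 0.51. All 9 fold changes stayed above 0 in both fits. The calls of Clec7a, Cd14 and Myd88 were thus lost without the libraries of high gland share, in fits that also hold fewer libraries.

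**Figure D3:**
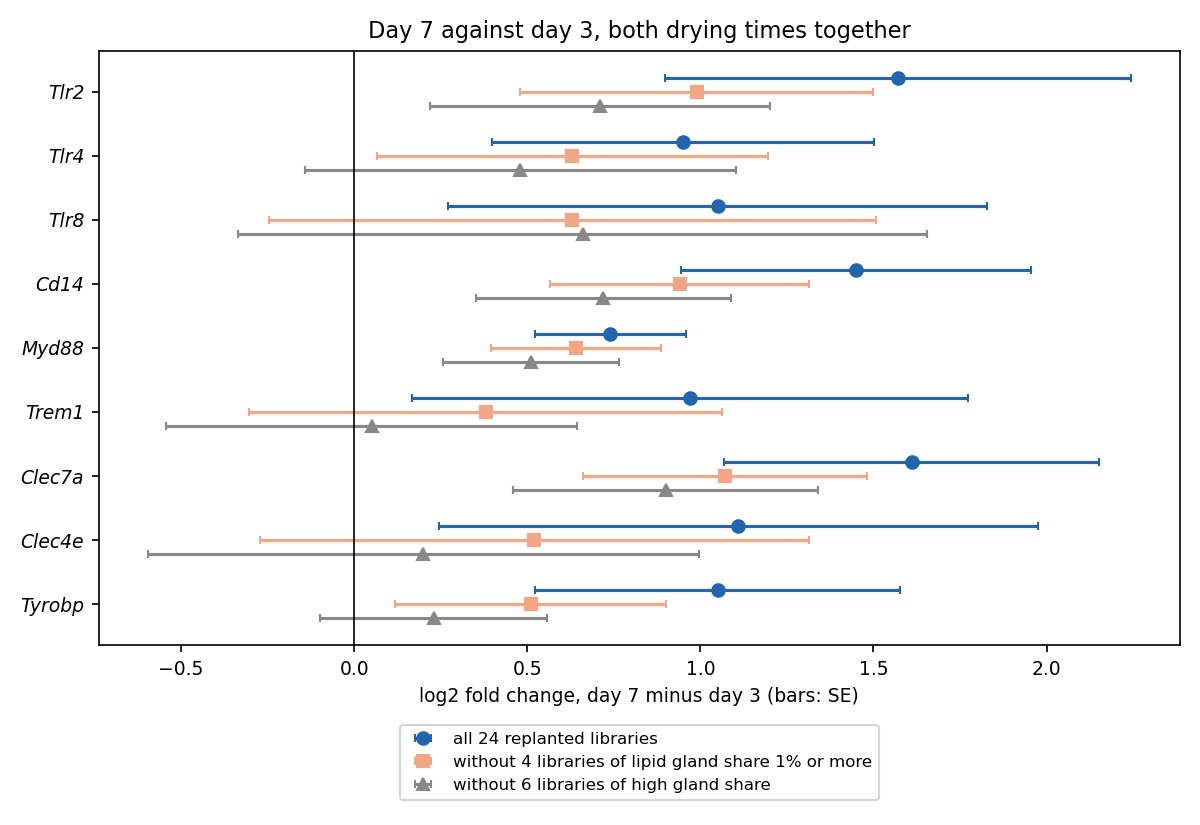
Log2 fold change at day 7 over day 3 (horizontal axis) of the 9 tested genes, over both drying times; bars are the SE. Circles use all 24 replanted libraries, squares leave out 4 libraries of high lipid gland share and triangles leave out 6 of high gland share, and for 8 genes the value shrinks at each step, Tlr8 being the exception (1.05, 0.63 and 0.66).

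Single libraries also decided calls. When each library was left out in turn, Myd88 was called in all 24 fits, Clec7a in 8 and Cd14 in 7. IR day 3 replicate 2 had the highest Tyrobp level of day 3 (1501 CPM), and in the fit without it Tlr2 (1.95, adjusted p = 0.0406 by edgeR) and Tyrobp (1.42, adjusted p = 0.0472 by edgeR) were called as well. Without any 1 of 16 other libraries, Myd88 was the 1 member called.

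Within each drying time, no member was called by edgeR. In DR, day 7 over day 3, the 9 log2 fold changes ran between 0.50 (Clec4e) and 1.44 (Clec7a), with a median of 0.92, adjusted p-values of 0.252 to 0.838 and 0 members at an unadjusted p under 0.05; 0.0087% of all genes were called. In IR they ran between 0.72 (Tlr4) and 1.79 (Clec7a), with a median of 1.37, adjusted p-values of 0.124 to 0.595 and 3 members (Myd88, Clec7a and Cd14) at an unadjusted p under 0.05; 0.139% of all genes were called. Without the 4 libraries of high lipid gland share, the DR median was 0.35, with Cd14 at 0.62, Clec7a at 0.58, Tlr2 at 0.50 and Tyrobp at 0.03, and Trem1 and Clec4e turned negative, at -0.39 and -0.46; without all 6 it was also 0.35. The IR median was 1.15 without the 4 and 0.83 without the 6 libraries, with Clec7a at 1.56 and 1.23 and Myd88 at 1.03 and 0.78. No member was called by edgeR in these fits. The difference between the time effects of DR and IR was tested as an interaction, in which 0 of 9 members and 0% of genes were called. Its values ran between -1.22 (Clec4e, SE 1.71) and 0.45 (Tlr4, SE 1.09), Myd88 had -0.45 (SE 0.436), and 0 members and 346 of all genes had an unadjusted p under 0.05. The median of the 9 was -0.31, but -0.96 without the 4 libraries, where none of the 9 values was positive (Clec4e -1.96, Trem1 -1.54, Myd88 -0.78), and -0.53 without the 6. Again no member was called by edgeR without these libraries.

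Longer drying was compared with shorter drying at each day. At day 7, DR over IR, 0 of 9 members and 0% of genes were called by edgeR, and 0 members and 206 genes had an unadjusted p under 0.05. The log2 fold changes ran between -0.44 (Tlr4, SE 0.763) and 0.43 (Tlr8, SE 1.06), with Myd88 at -0.23 (SE 0.307) and Tyrobp at -0.31 (SE 0.739); their median was -0.23, against -4.5e-05 over all genes. At day 3, again 0 of 9 members and 0% of genes were called by edgeR, and 0 members and 313 genes had an unadjusted p under 0.05. The values ran between -0.89 (Tlr4, SE 0.793) and 1.46 (Clec4e, SE 1.25), with Myd88 at 0.22 (SE 0.309) and a median of 0.22, against -0.039 over all genes. These day 3 values depended on the 4 libraries of high lipid gland share, 3 of them DR: without them the median was 0.75, with Clec4e at 2.2, Clec7a at 1.05, Tlr2 at 0.75, Tyrobp at 0.66 and Myd88 at 0.56. Without all 6 it was 0.31, with Clec4e at 1.57, Tlr2 at 0.19 and Tyrobp at 0.11. No member was called by edgeR, or had an unadjusted p under 0.05, in either fit. A p-value above the threshold does not show that DR and IR were alike, and for Clec4e the SE of 1.25 at day 3 leaves a wide interval. In the fit of all 24 libraries, Myd88 had the smallest SE, 0.307 at day 7 and 0.309 at day 3. That fit shares 1 estimate of spread between the days. In the 12 day 7 libraries alone, Tyrobp had -0.3 (SE 0.242) and Myd88 -0.22 (SE 0.303). With the replicate number as a block there, Tyrobp had -0.26 (SE 0.132), Cd14 0.04 (SE 0.198) and Myd88 -0.21 (SE 0.205).

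**Figure D4:**
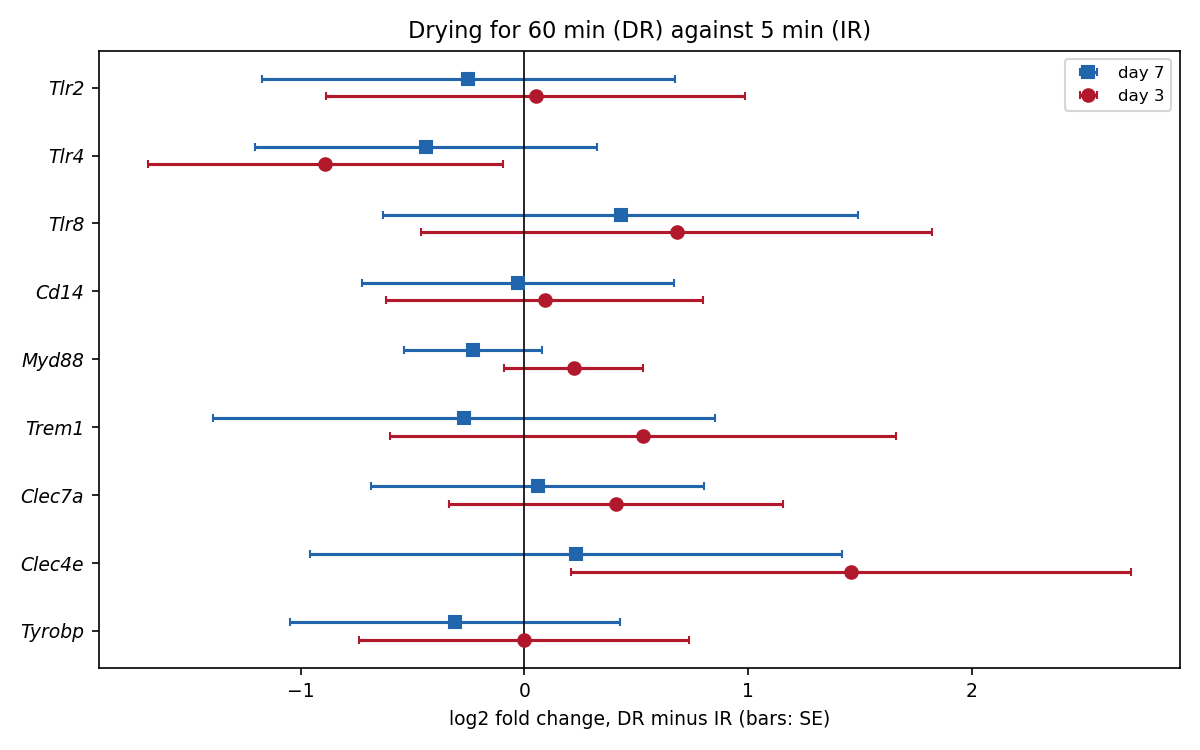
Log2 fold change in DR over IR (horizontal axis) of the 9 tested genes at day 7 (squares) and day 3 (circles); bars are the SE. Myd88 has the shortest bars, at -0.23 for day 7 and 0.22 for day 3, and Tlr4 and Clec4e hold the outermost values of day 3, at -0.89 and 1.46.

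Against NT, a single library with no replicate, no test was possible. The difference used was log2 of the group's mean CPM + 1 minus log2 of the NT level + 1, counted past 2-fold at 1, and it understates the change of low genes. At day 7, 7 of 9 members were past 2-fold higher in DR, where 13.5% of genes were, and 8 of 9 in IR, where 11% were. At day 3, 5 of 9 were past 2-fold higher in DR and 5 in IR, beside 17.7% and 17.4% of genes. No member was past 2-fold lower in any group. The share of genes past 2-fold lower was 6.36% for DR and 4.82% for IR at day 7, and 9.86% for DR and 8.21% for IR at day 3.

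Tlr2 differed from NT by 2.85 in DR day 7 and 3.15 in IR day 7, and Clec7a by 3.02 in both. All 6 libraries of each day 7 group lay above NT for Tlr2, Clec7a, Cd14 and Tyrobp. At day 3, Tlr2 differed by 1.5 in DR and 1.43 in IR, but only 3 of 6 libraries in each group were above NT. Tyrobp differed by 1.34 for DR and 1.7 for IR at day 7, and by 0.47 for DR and 0.45 for IR at day 3, when 3 of 6 DR and 2 of 6 IR libraries exceeded NT. At day 7, Cd14 differed by 2.51 (DR) and 2.58 (IR), Trem1 by 2.41 and 2.73, and Myd88 by 0.93 and 1.2. Tlr4 did not pass 2-fold in any group, with 0.53 (DR) and 0.9 (IR) at day 7 and -0.19 (DR) and 0.32 (IR) at day 3. Clec4e had no count in NT, and the limit of 3 counts was taken for that library. By group means, it was at least 12.2-fold higher in DR day 7 and at least 10.9-fold higher in IR day 7. These bounds cover counting error in NT only, not the spread of libraries. IR day 7 replicate 6 had 0 counts as well, and DR day 7 replicates 4 and 6 had only 0.979 and 0.852 CPM.

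The group means at day 3 rested on few libraries. Without the 4 libraries of high lipid gland share, 7 of 9 members were past 2-fold higher in DR (3 libraries), beside 14% of genes, and 5 in IR (5 libraries), beside 14.8%. Tlr2 then differed from NT by 2.41 in DR and 1.68 in IR, and Tyrobp by 1.36 in DR and 0.69 in IR. Without all 6, when the DR libraries are the same, 6 members were past 2-fold in IR (3 libraries), beside 13% of genes. Without DR day 3 replicate 4 or replicate 6, 3 members were past 2-fold in DR, and without IR day 3 replicate 1 or replicate 2, 1 member was in IR. The share of all genes past 2-fold is not given for these omissions. The levels of Dspp and Col1a1 also differed between replanted and NT tissue, and the part of tissue content, age and the single library in these differences was not tested.

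The sensors were next set against the leukocyte markers of the same library. The neutrophil granule genes Camp, Ngp and Mpo had group means of 23.3 to 55.6, 5.46 to 23.2 and 2.77 to 10.8 CPM after replantation, against 729, 555 and 172 CPM in NT. Other markers of the list did not follow: Lcn2 had group means of 213 to 291 CPM and Mmp9 of 208 to 668 CPM, against 93.9 and 205 CPM in NT. Csf3r, the receptor for granulocyte colony-stimulating factor, averaged 25.8 CPM in DR day 7, 35.9 CPM in IR day 7, 9 CPM in DR day 3 and 6.88 CPM in IR day 3, against 2.5 CPM in NT. The neutrophil marker sum of NT was 10252 CPM, mostly S100a8 and S100a9 (4325 and 4060.1 CPM). Of the 18 neutrophil markers measured, 1 was at 0 in NT (Ltf, which was at or near 0 in all groups).

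Per 1000 CPM of neutrophil markers, Tlr2 had 8.13 to 12.4 CPM in DR day 7 and 4.65 to 11.8 CPM in IR day 7, against 0.545 CPM in NT. Trem1 had 5.34 to 13.1 CPM in DR day 7 and 2.48 to 13.4 CPM in IR day 7, against 0.637 CPM in NT. Clec7a had 35.7 to 71.4 CPM in DR day 7 and 17 to 53.4 CPM in IR day 7, against 2.65 CPM in NT. For these genes no day 7 library came near NT, but the NT sum was mostly S100a8 and S100a9. Csf3r, on the same list, was lower in NT (2.5 CPM) than at day 7 (25.8 CPM in DR and 35.9 CPM in IR). The distance to NT therefore rests on which markers dominate the sum, and sensor RNA per neutrophil was not measured. At day 3 the ratios spread more widely, with Tlr2 at 2.65 to 6.34 CPM in DR and 0 to 10.9 CPM in IR.

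Against monocyte and macrophage markers the same genes lay closer to NT, but that sum was mostly Lyz2 (1844 of 2399 CPM in NT). Csf1r, on the same list, averaged 176 CPM in DR day 7 and 225 CPM in IR day 7, against 93.6 CPM in NT. Cd163 went the other way (3.82 and 7 CPM against 12.6 CPM). This distance to NT, too, rests on which markers dominate the sum. Per 1000 CPM of monocyte and macrophage markers, Tlr2 had 8.1 to 16.2 CPM in DR day 7 and 5.12 to 18.7 CPM in IR day 7, against 2.33 CPM in NT. Clec7a had 35.6 to 100.2 CPM in DR day 7 and 18.7 to 86 CPM in IR day 7, against 11.3 CPM in NT. Trem1 had 6.87 to 18.4 CPM in DR day 7 and 2.73 to 16.1 CPM in IR day 7, against 2.72 CPM in NT, so that its lowest IR library was level with NT. Tyrobp per 1000 CPM of those markers was 209 to 348 CPM (DR) and 264 to 311 CPM (IR) at day 7, and 157 to 419.6 CPM (DR) and 153 to 457 CPM (IR) at day 3, against 153 CPM in NT. Myd88 fell out of this order, at 11.4 to 17.8 CPM (DR) and 11.7 to 16.7 CPM (IR) at day 7 but 11.3 to 84 CPM (DR) and 12.1 to 205 CPM (IR) at day 3, against 11 CPM in NT. The highest Myd88 ratios of day 3 came with low marker sums, 178 to 505 CPM, while the highest Tyrobp ratios, 419.6 in DR and 457 in IR, came with sums of 2787 and 3289 CPM.

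**Figure D5:**
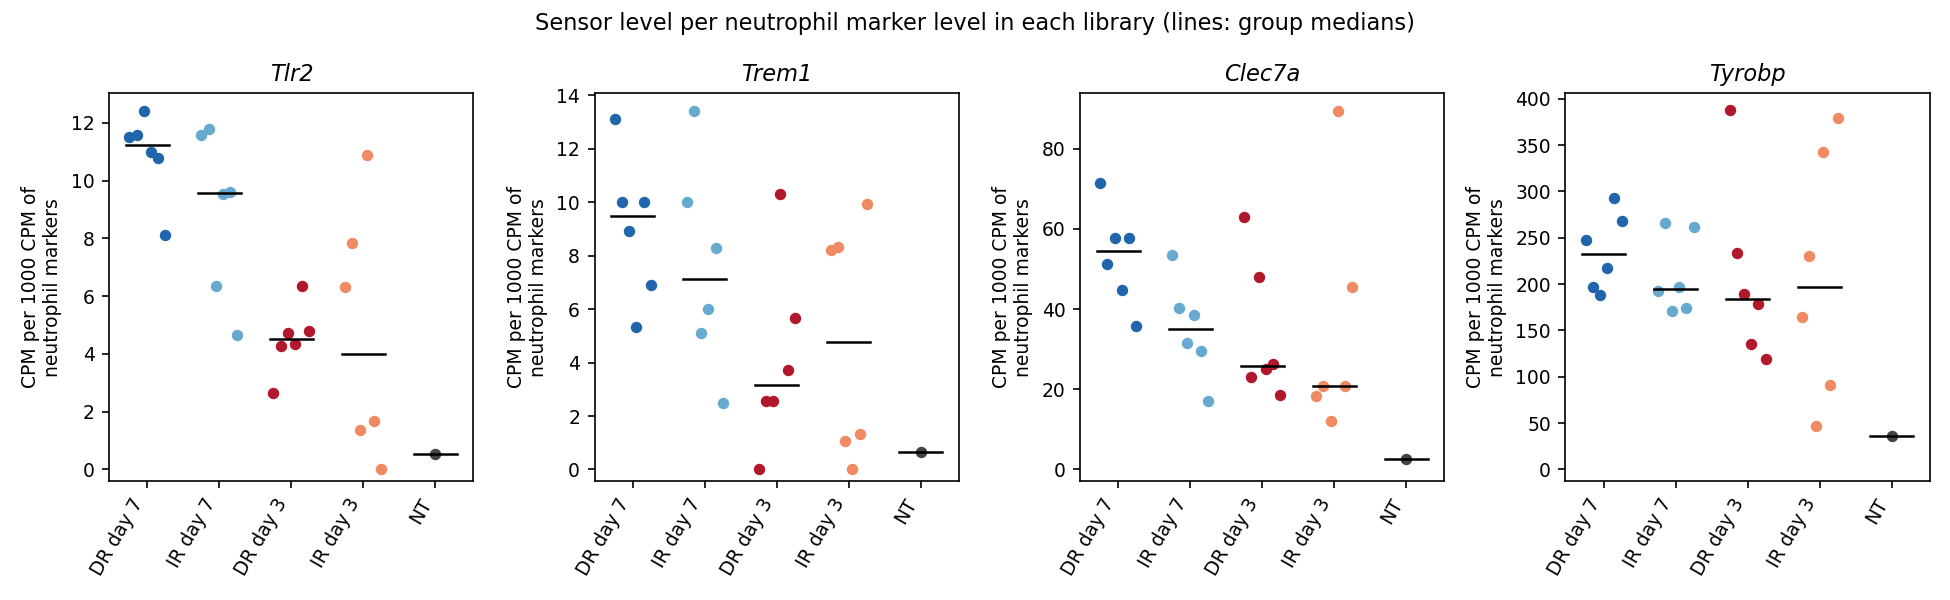
Level of Tlr2, Trem1, Clec7a and Tyrobp per 1000 CPM of summed neutrophil markers (vertical axes) by group, in the order DR and IR of day 7, DR and IR of day 3, and NT. Each point is 1 library and lines are group medians; NT, at 0.545 for Tlr2 and 2.65 for Clec7a, lies below all day 7 libraries in each panel.

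Across the 24 replanted libraries, which share depth and tissue content with every gene, the levels of most members moved together. The closest pair was Tlr2 and Tyrobp (Pearson r = 0.979, Spearman rho = 0.92), and Clec7a was closest to Tlr2 (r = 0.969, rho = 0.94). Cd14 was closest to Clec7a (r = 0.947, rho = 0.895), Trem1 to Tyrobp (r = 0.938, rho = 0.939) and Clec4e to Trem1 (r = 0.905, rho = 0.916). Myd88 was closest to Clec4e (r = 0.832, rho = 0.801) and Tlr4 to Myd88 (r = 0.71, rho = 0.831). Tlr8, with 163 counts in all, had no partner above r = 0.552 (Clec4e). These values describe the libraries, and no p is given.

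The genes outside the 10 that were most like their mean, over 24 libraries and 7711 candidates, were the transcription factor genes Klf6 (r = 0.978, rho = 0.953) and Junb (r = 0.973, rho = 0.939), the Fc receptor Fcgr2a (r = 0.977, rho = 0.957), the stress gene Gadd45b (r = 0.976, rho = 0.964) and the tumour necrosis factor receptor Tnfrsf1b (r = 0.976, rho = 0.928). With the group means taken off, r was 0.966 to 0.978 for these 5.

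The rest of the pathway was counted from 5 lists over both drying times, day 7 over day 3, against the same 6.94% of genes called higher and 11.8% lower. Of the relatives and co-receptors of the Toll-like receptors, 16 of 17 were measured and 11 tested, and 3 rose and 1 fell by edgeR. Unc93b1, which carries endosomal Toll-like receptors out of the endoplasmic reticulum, rose by 1.27 (SE 0.228, adjusted p = 0.00423 by edgeR). Ly86 (MD-1) rose by 1.79 (adjusted p = 0.00653) and Tlr6, the partner of Tlr2, by 1.27 (adjusted p = 0.00942). Tlr5, the flagellin receptor, fell by 1.68 in log2 fold change (SE 0.557, adjusted p = 0.0393 by edgeR).

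Of the adaptors and kinases of the pathway, 18 of 21 were measured and 17 tested, and 3 rose and 0 fell. They were the transcription factors Irf7 (1.74, adjusted p = 0.0185 by edgeR), Irf5 (1.27, adjusted p = 0.03) and the NF-kB subunit Rela (0.46, adjusted p = 0.0316), so none was an adaptor or a kinase. Of the NF-kB target genes, 14 of 17 were tested, and 3 rose and 0 fell: Nfkb2 (1.19, adjusted p = 0.015 by edgeR), the cytokine Tnf (2.01, adjusted p = 0.0442) and the adhesion molecule Icam1 (1.29, adjusted p = 0.0454).

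Of the 29 listed genes of the ITAM arm, the receptors and kinases around Tyrobp and Syk, 22 were tested, and 10 rose and 0 fell, with a median log2 fold change of 1.2. Among those that rose were Ptpn6, the phosphatase SHP-1, which restrains this arm (0.74, adjusted p = 0.00563 by edgeR), and the C-type lectin gene Clec4a1 (1.44, adjusted p = 0.0138). Of the 13 listed inhibitors, 8 were tested, and 3 rose and 0 fell: Sirpa, the receptor for Cd47 (0.80, adjusted p = 0.0206 by edgeR), the inhibitory receptor Lilrb3 (1.92, adjusted p = 0.0339) and Irak3, a brake on Myd88 signalling (1.02, adjusted p = 0.0404). In the other 5 contrasts no gene of these lists was called by edgeR.

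These counts too rested on the libraries of high gland share. Without the 4 of high lipid gland share, 2 relatives and 1 ITAM gene were called higher and none of the other lists, by edgeR. Without all 6, 1 relative, Unc93b1, was called and none of the other lists. Unc93b1 was called in each of the 24 fits that left out 1 library.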

How the data were processed

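The authors deposited raw counts, 1 whole number per gene symbol and library. Lexogen QuantSeq 3′ libraries were made from 500 ng of Trizol-extracted total RNA, per the labels' protocols. The submitters' processing notes name Bowtie2, edgeR and the builds mm10 and rn6, without roles. Not given in the sources used here are their versions, the counting tool, the annotation and the strand setting. Each file held 17048 entries, and for each of 149 repeated symbols the entry of highest total was kept.

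The 24 replanted libraries were fitted with edgeR 4.0.16 in R 4.3.3: TMM scaling, filterByExpr, robust quasi-likelihood fit, 4 group means, 20 residual degrees of freedom, Benjamini-Hochberg adjustment over 11492 genes. SE is the absolute log2 fold change over the root of F. Log2 CPM used a prior count of 2. On simulated counts for the contrast of both day 7 groups with both day 3 groups (11511 genes), 52% of changes of 1 on the log2 scale and 82% of changes of 2 were recovered, with 2 false calls. limma 3.58.1, DESeq2 1.42.0, other scalings and filters, and leaving out libraries were alternatives. No 2 libraries held identical values.

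Same-numbered DR and IR libraries deviated together at day 7 (r 0.23 to 0.82 in 6 pairs), so those numbers were taken to pair libraries there. Only 3 of the 6 DR libraries correlated best with the IR library of their own number. The main fit of 24 libraries did not use this pairing. Correlations of -0.51 to 0.34 at day 3 and of -0.55 to 0.41 across the days did not. Deposited names number the day 7 libraries differently from the labels.

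The 10 members, the lists and the tests were chosen with earlier results of these data known. Members were named by their roles; from each other list, up to 3 called genes of smallest p were named, of which 1 is not reported here, and Tlr5 was named after its value was seen as the 1 gene called lower.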

Additional observations from a re-analysis of the deposited data

Results flagged for a closer look

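In 40 sets of 6 libraries (10 genes in 4 groups), libraries with a large gap to their nearest neighbour for the group's range were flagged. Chance alone flags about 1 in 20 such sets if they are independent, but these share libraries and most genes moved together. That rate is therefore no yardstick for the 7 sets that held a flagged library. IR day 7 replicate 6 was low in 4 of them: its log2 CPM was 3.51 for Cd14, 2.39 for Trem1, 5.1 for Clec7a and -1.79 for Tlr4, where the nearest IR day 7 libraries had 5.09, 5.04, 7.49 and 1.59. Tlr4 was also low in DR day 7 replicate 4, at -1.05, with the nearest library at 1.31. Tlr4 was high in IR day 3 replicate 1, at 2.18, with the nearest at 1.1. Tlr7 was high in IR day 7 replicate 1, at 1.1, with the nearest at -1.14; the gene was too low to be tested.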

How the results depend on the processing

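Of the 9 members tested, 3 were called at day 7 over day 3 across both drying times. This count was 1 without the filter on low counts (4.82% of all genes called higher), 6 with limma-voom (12.7%), 7 with limma-voom and sample quality weights (25.6%), and 1 to 5 when each library was left out in turn; 16 of those 24 fits gave 1. It was 0 without 4 or without 6 libraries of high gland share, a choice made after seeing the data. With the replicate number as a block over the 24 libraries it was 0 (4.06%), although the numbers paired libraries at day 7 only. The block over the 12 day 7 libraries changed no DR against IR call, with 0 members called (Tyrobp -0.26, adjusted p = 0.693 by edgeR). In day 7 over day 3, IR had 1 member called with DESeq2 (6.67% of all genes called in either direction) and 6 with limma-voom and quality weights (39.1%), and DR had 7 with limma-voom and quality weights (34.2%). The counts of members called in DR against IR and in the interaction were 0 under every alternative run. Among all genes, limma-voom with quality weights called 13.3% in DR over IR at day 3 and 6.71% in the interaction. DESeq2 called 0.0198% in DR over IR at day 7 and 0.123% in the interaction. With 5 CPM added instead of 1, 3 members were past 2-fold over NT in DR day 3 and 3 in IR day 3. With each library left out these counts were 3 to 5 and 1 to 5. The share of all genes past 2-fold is not given for these settings.

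Signs turned for several genes, none of them called by edgeR in the contrasts named here. In the 12 day 3 libraries alone with the replicate number as a block, DR over IR turned negative for 4 genes. These were Clec7a (-0.36, SE 1.56), Cd14 (-0.3, SE 1.4), Trem1 (-0.25, SE 3.35) and Tlr2 (-0.09, SE 2.49). At day 7, Cd14 turned from -0.03 to 0.04 with the block. Tlr4, Tlr8, Trem1 and Clec4e turned in other settings. Tlr4 was 0.38 in DR over IR at day 7 and -0.26 in IR over time with limma-voom, and -0.08 in the interaction without the 4 libraries. Tlr8 was -0.66 in IR over time with quality weights, with a range of -0.31 to 1.78 when each library was left out, and of -0.09 to 1.9 in DR over IR at day 7. Trem1 in DR over time was -0.39 without the 4 and without the 6 libraries, and Clec4e -0.46 in both. Clec4e was -0.19 in DR over IR at day 3 with quality weights, and 0.98 and 0.8 in the interaction with limma-voom without and with weights. The cause was not tested. Other scalings moved the median of all genes by under 0.1 on the log2 scale. Some fits of 12 libraries left out Clec4e and Tlr8 by the count filter and give no value for them. Depth limits Tlr7 and Tlr8, with 72 and 163 counts over 24 libraries.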
